A study of Mus musculus with 9 samples.

Results

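Lin28a, Lin28b, Trim71, Igf2bp1, Igf2bp2, Igf2bp3, Hmga1 and Hmga2 are oncofetal genes: they are active in the embryo, mostly silent in adult tissue and often switched on again in tumours. Most of them are linked by the microRNA let-7. The 8 genes were chosen by symbol as regulators of the let-7 pathway or textbook let-7 targets, and all 8 were found among the 24421 genes of the count table. All 8 also passed the filter on low counts, which kept 14513 genes. The RNA came from D3 mouse embryonic stem (ES) cells, kept without feeder cells on gelatin in serum medium with leukemia inhibitory factor. The 9 libraries form 3 groups of 3. LAMP2A+DM-αKG cells overexpressed LAMP2A and received 4 mM DM-αKG, a cell-permeable ester of α-ketoglutarate, for 72 h. LAMP2A cells overexpressed LAMP2A without the ester. VT cells stably carried the empty pCDH vector and serve as the control. LAMP2A is the splice form of a lysosomal membrane protein that acts as receptor in chaperone-mediated autophagy. The labels give neither a number of clones nor separate cultures for the libraries, so the p-values cover the variation among these libraries alone, and that variation may be technical.

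As background, let-7 microRNAs rise as embryonic cells differentiate, and they repress messenger RNAs (mRNAs) that carry a match to their seed in the 3′ untranslated region (UTR). LIN28A and LIN28B bind let-7 precursors and hold back their maturation, while let-7 in turn represses the Lin28 mRNAs. TRIM71 is an RNA-binding ubiquitin ligase of stem cells, first known as the let-7 target lin-41 in Caenorhabditis elegans. The IGF2BP proteins bind mRNAs and affect their stability and translation. HMGA1 and HMGA2 are small chromatin proteins that bind AT-rich DNA, and Hmga2 mRNA is a classical let-7 target.

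The mature sequences of the let-7 family show what these genes have in common, since all share bases 2 to 8. They are given here from RefSeq on GRCm38.p6, with that seed in capitals.
let-7a-5p: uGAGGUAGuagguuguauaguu
let-7b-5p: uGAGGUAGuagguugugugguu
let-7c-5p: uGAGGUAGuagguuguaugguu
let-7d-5p: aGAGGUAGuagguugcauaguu
let-7e-5p: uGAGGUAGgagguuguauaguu
let-7f-5p: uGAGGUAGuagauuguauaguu
let-7g-5p: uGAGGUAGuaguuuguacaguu
let-7i-5p: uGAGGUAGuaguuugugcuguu
miR-98-5p: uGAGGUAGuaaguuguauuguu
The sequence table held 13 mature entries with this seed, 11 of them different. LIN28 proteins contact the loop of let-7 precursors, in which the letters GGAG are a known binding motif. Of the 12 let-7 and miR-98 hairpins in the table, 9 had GGAG between the arms. A hairpin with the motif, in capitals, and a hairpin without it are set side by side.
Mirlet7g, chr9:106178840-106178927, plus strand: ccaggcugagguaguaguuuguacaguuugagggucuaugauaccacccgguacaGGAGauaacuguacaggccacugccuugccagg
Mirlet7b, chr15:85707319-85707403, plus strand: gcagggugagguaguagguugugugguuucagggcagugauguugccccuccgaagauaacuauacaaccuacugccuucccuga

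The 3′ UTRs of all 8 genes held the complement of the seed, CTACCTC, read on the gene's own strand in GENCODE vM21 transcripts on GRCm38. A match followed by A, called an 8mer, can pair with let-7 more strongly than the 7 bases alone. Together the genes held 21 matches, of which 13 were 8mers, and 7 of the 8 genes had an 8mer. Among 13380 tested genes with an annotated 3′ UTR, 1432 (10.7%) had a match and 1.32% had more than 1 match. A match is a description of letters and not evidence of repression in these cells. Below are the site nearest to the stop codon in each gene and all 4 sites of Hmga2, the gene with the largest change, each as 30 bases with the match, and the A of an 8mer, in capitals.
Lin28a, chr4:134005189-134005218, minus strand: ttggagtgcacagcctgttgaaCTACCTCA
Lin28b, chr10:45381022-45381051, minus strand: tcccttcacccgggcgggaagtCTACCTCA
Trim71, chr9:114512472-114512501, minus strand: aaagtacaacattgcctaagtcCTACCTCA
Igf2bp1, chr11:95961778-95961807, minus strand: aggcagtgctgtgcgaagtaaaCTACCTCA
Igf2bp2, chr16:22059473-22059502, minus strand: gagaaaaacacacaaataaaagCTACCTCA
Igf2bp3, chr6:49086787-49086816, minus strand: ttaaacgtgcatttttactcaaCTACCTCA
Hmga1, chr17:27563270-27563299, plus strand: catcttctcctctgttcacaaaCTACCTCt
Hmga2 site 1, chr10:120364224-120364253, minus strand: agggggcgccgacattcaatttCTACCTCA
Hmga2 site 2, chr10:120362987-120363016, minus strand: caataatccccactcctcaataCTACCTCt
Hmga2 site 3, chr10:120362549-120362578, minus strand: ggacttcctgatttgcaaggaaCTACCTCc
Hmga2 site 4, chr10:120361691-120361720, minus strand: gttgtacaatcaaaacacactaCTACCTCt

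The genes differed in how many matches they held for the length of their UTR. They were chosen as let-7 regulators or textbook let-7 targets, and that choice itself favours genes with matches. The shares below are thus a description and not a test. Hmga2 had 4 matches in 3014 bases, and 0.187% of the 2134 tested genes with a UTR within 25% of that length had as many or more. Lin28b had 4 matches in 4445 bases (0.313% of genes with UTRs of like length had as many), Igf2bp1 had 4 in 6337 bases (0.357%) and Trim71 had 4 in 5512 bases (0.639%). Lin28a had 2 matches in 2775 bases (2.22%). Igf2bp2, Igf2bp3 and Hmga1 had 1 match each, and among genes with UTRs of like length 12.4% had at least 1 for Igf2bp2, 13.9% for Igf2bp3 and 8.63% for Hmga1. All 4 matches of Trim71 and both of Lin28a were 8mers, whereas 1 of 4 was an 8mer in Lin28b and in Hmga2. The first match lay 36 bases after the stop codon in Lin28b and 58 bases after it in Hmga2.

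**Figure D1:**
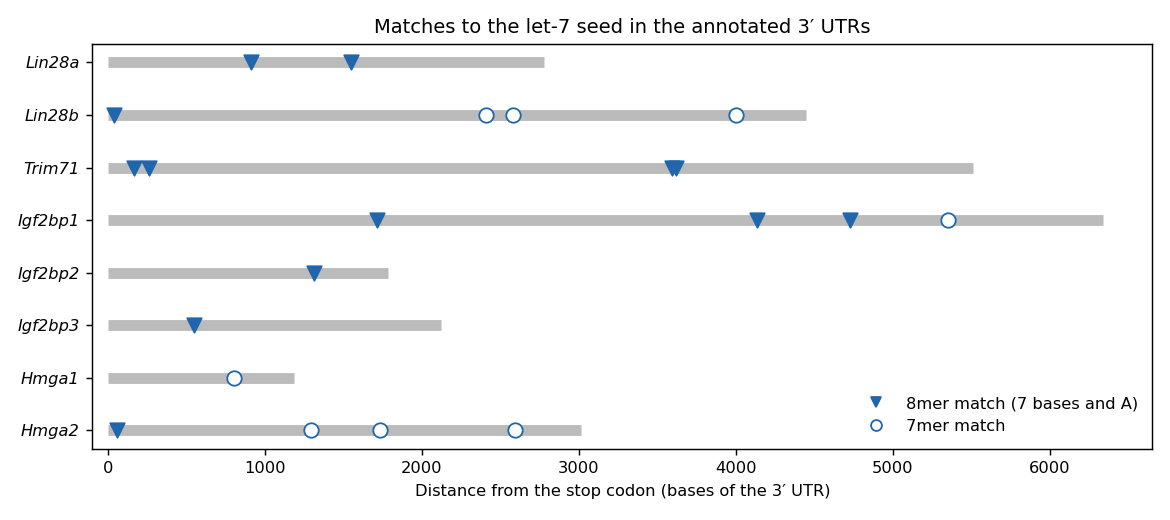
Position of each let-7 seed match in the annotated 3′ UTR of the 8 genes; the horizontal axis is the distance from the stop codon in bases, grey bars are the UTRs, filled triangles are 8mers and open circles are 7-base matches. The 21 matches include 4 each in Lin28b, Trim71, Igf2bp1 and Hmga2, and 1 each in Igf2bp2, Igf2bp3 and Hmga1.

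Library totals ran from 23636074 to 32809875 counts, and levels are given as CPM, each count divided by the TMM-adjusted library size. Lamp2, the gene that was overexpressed, stood at 97.2 ± 2.00 CPM in LAMP2A+DM-αKG cells, 404 ± 2.24 CPM in LAMP2A cells and 58.1 ± 1.64 CPM in VT cells (SD, n = 3 each). Lamp2 was thus 6.95-fold higher in LAMP2A than in VT cells, but only 1.67-fold higher in LAMP2A+DM-αKG than in VT cells. In the comparison of LAMP2A+DM-αKG with LAMP2A cells, the ester and the lower Lamp2 level cannot be told apart. The counts do not separate the Lamp2 splice forms or the transgene. ES cell markers were present in all groups but at different levels: 9 of 10 reached 5 CPM in each, with sums of 6494 to 6538 CPM in LAMP2A+DM-αKG cells, 1828 to 1832 CPM in LAMP2A cells and 7585 to 8047 CPM in VT cells. By the test described below, 9 of the 10 fell in LAMP2A against VT cells, 8 of them at least 2-fold, and 1, Fut4, rose. Among all tested genes 42.1% fell and 43% rose there.

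Across the 3 groups, 7 of the 8 genes were highest in LAMP2A cells. In LAMP2A against VT cells, 7 rose and 1, Hmga1, was not called, at an adjusted p under 0.05 in edgeR's quasi-likelihood test over all tested genes; 43% of all tested genes rose and 85.1% changed in either direction. Of the 7, Lin28b and Hmga2 rose at least 2-fold, as did 19.8% of all tested genes. In LAMP2A+DM-αKG against LAMP2A cells, the same 7 fell, 4 of them at least 2-fold; 42.1% of all tested genes fell, 17.6% at least 2-fold, and 83.2% changed in either direction. Both comparisons use the LAMP2A libraries, and of all 6239 genes that rose in the first, 5389 fell in the other, so most raised genes fell, not these 7 alone. Set against VT cells, LAMP2A+DM-αKG cells had 5 genes that fell, 1 that rose and 2 that were not called, beside 29.4% of tested genes that fell, 29.3% that rose and 58.7% that changed in either direction. Lin28a was the only gene of the 8 with a change of at least 2-fold there, a fall that 2.63% of tested genes shared. The median log2 fold change of the 8 genes was 0.55, -0.84 and -0.14 in these 3 comparisons in the order given, and that of all tested genes was 0.01, 0.00 and 0.00. Libraries of the groups did not overlap for 7 genes in LAMP2A against VT cells, as for 43.1% of all tested genes with the higher values in LAMP2A cells. They did not overlap for 7 genes in LAMP2A+DM-αKG against LAMP2A cells (43.2% of tested genes, lower), nor for 5 genes in LAMP2A+DM-αKG against VT cells (61.3%, either direction). Each group of libraries serves in more than 1 comparison, so the comparisons are not independent of each other.

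**Figure D2:**
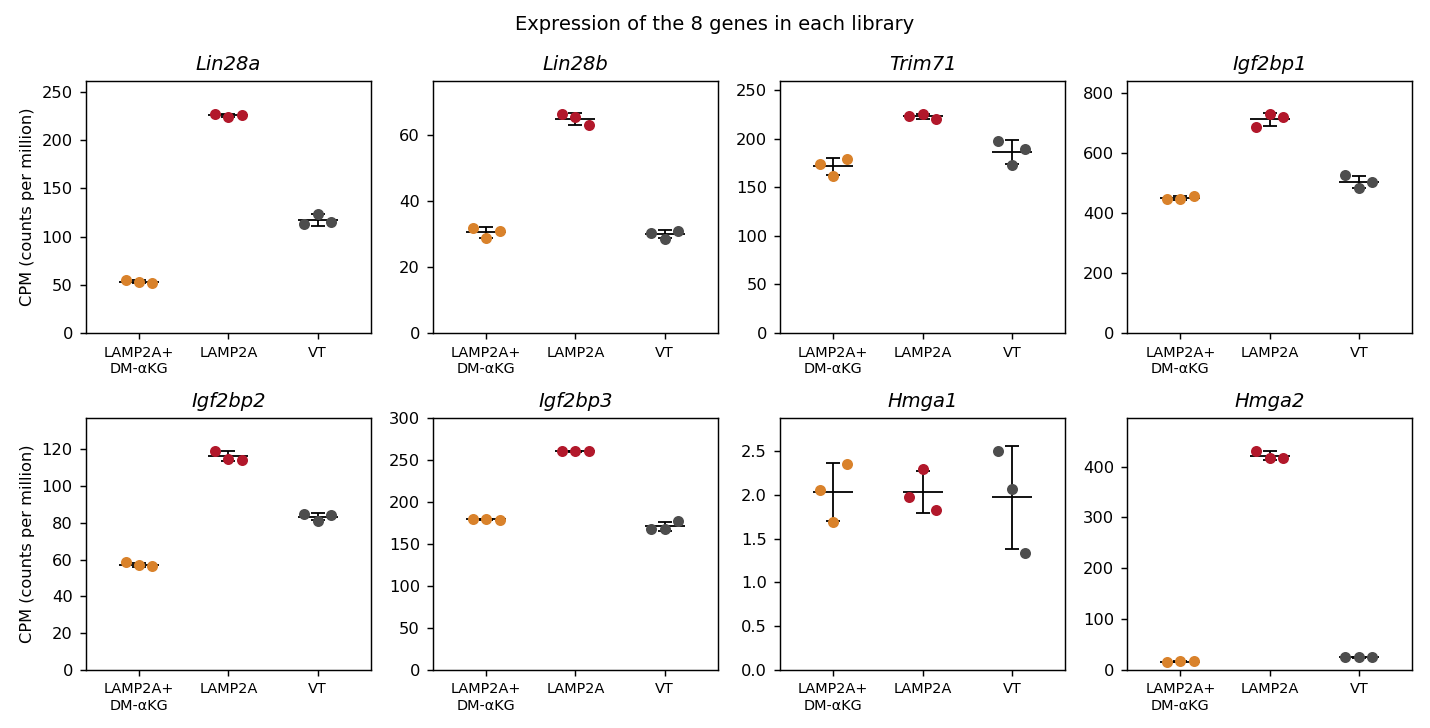
CPM of each of the 8 genes in every library; points are libraries, the horizontal bar is the mean and the error bar the SD over 3 libraries, and each panel starts at 0. LAMP2A libraries lie above all others for every gene except Hmga1, and the largest gap is that of Hmga2, with 417 to 432 CPM in LAMP2A cells against 24.1 to 25.5 CPM in VT cells.

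Lin28a, the LIN28 paralog typical of ES cells, was the gene that ended lowest relative to VT cells after DM-αKG. Its level was 54.6, 53.1 and 52.2 CPM in LAMP2A+DM-αKG libraries, 227, 224 and 226 CPM in LAMP2A libraries, and 113, 124 and 115 CPM in VT libraries. No libraries of different groups overlapped. The log2 fold change was 0.94 (SE 0.033, adjusted p = 3.9e-24) in LAMP2A against VT cells. It was -2.08 (SE 0.036, adjusted p = 2.1e-33) in LAMP2A+DM-αKG against LAMP2A cells, which is 4.24-fold lower. Against VT cells it was -1.14 (SE 0.037, adjusted p = 1.4e-23), or 2.20-fold lower, and ranked Lin28a 14180 of 14513 genes ordered from the highest change to the lowest.

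Lin28b, the paralog that also blocks let-7 maturation, had nearly the same level in LAMP2A+DM-αKG and VT cells. It was measured at 31.7, 28.6 and 31.0 CPM in LAMP2A+DM-αKG libraries, 66.3, 65.4 and 62.8 CPM in LAMP2A libraries, and 30.4, 28.5 and 30.9 CPM in VT libraries. The LAMP2A libraries stood apart, and the other groups overlapped. The log2 fold change was 1.12 (SE 0.044, adjusted p = 2.0e-22) in LAMP2A against VT cells and -1.09 (SE 0.044, adjusted p = 3.9e-22) in LAMP2A+DM-αKG against LAMP2A cells. Against VT cells it was 0.02 in LAMP2A+DM-αKG cells, with a 95% interval from -0.08 to 0.13 and an adjusted p of 0.705.

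The balance between the paralogs therefore differed by group. Per kb of transcript, Lin28b made up 27.0 ± 0.968% of the Lin28 signal in LAMP2A+DM-αKG cells, 15.7 ± 0.360% in LAMP2A cells and 14.2 ± 1.08% in VT cells (SD, n = 3 each). The LAMP2A+DM-αKG libraries, at 25.9 to 27.8%, lay above all other libraries. A two-sided exact permutation test gave p = 0.1 for each pair of groups, the smallest value that 3 against 3 libraries allow. Among the Igf2bp genes, Igf2bp1 held 49.0% in LAMP2A+DM-αKG cells, 48.6% in LAMP2A cells and 49.8% in VT cells. Igf2bp2 held 13.4% in LAMP2A+DM-αKG cells, 17.0% in LAMP2A cells and 17.7% in VT cells. The share of Igf2bp3 was 37.6% in LAMP2A+DM-αKG cells, 34.3% in LAMP2A cells and 32.5% in VT cells.

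**Figure D3:**
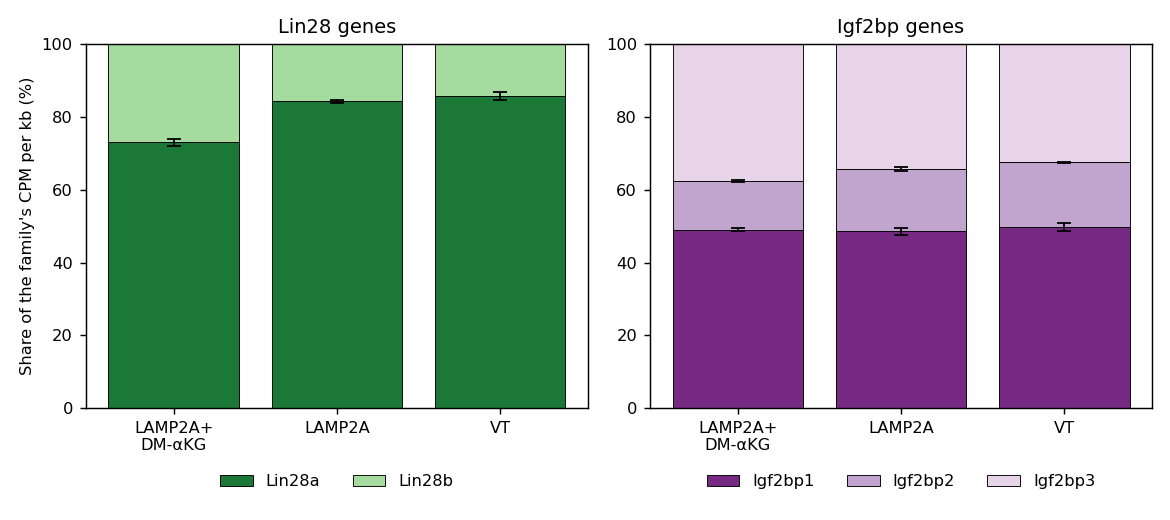
Share of each paralog in the CPM per kb of the Lin28 genes (left) and Igf2bp genes (right) in the 3 groups, as stacked means over 3 libraries with SD at the borders. Lin28b takes 27.0% of the Lin28 signal in LAMP2A+DM-αKG cells, 15.7% in LAMP2A cells and 14.2% in VT cells.

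Trim71, called in both comparisons with LAMP2A cells, had the smallest change of the 7 called genes in each. Its level was 174, 162 and 179 CPM in LAMP2A+DM-αKG libraries, 223, 226 and 220.3 CPM in LAMP2A libraries, and 198, 173 and 189 CPM in VT libraries. The LAMP2A libraries lay above all others, and the other groups overlapped. The log2 fold change was 0.26 (SE 0.040, adjusted p = 1.4e-06) in LAMP2A against VT cells and -0.38 (SE 0.040, adjusted p = 2.7e-09) in LAMP2A+DM-αKG against LAMP2A cells. Against VT cells it was -0.12 (SE 0.040, adjusted p = 0.0141) in LAMP2A+DM-αKG cells, and this call was lost without VT replicate 1 (adjusted p = 0.106), VT replicate 3 (0.101) or LAMP2A+DM-αKG replicate 2 (0.117). Over 13 alternative analyses the adjusted p ranged from 7.8e-06, without VT replicate 2, to 0.117, so the call depended on single libraries.

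Igf2bp1 was the Igf2bp gene with the highest level per kb in every group. It had 447, 446 and 458 CPM in LAMP2A+DM-αKG libraries, 688, 730.0 and 719 CPM in LAMP2A libraries, and 525, 483 and 503 CPM in VT libraries. All 3 groups were separate. The log2 fold change was 0.50 (SE 0.032, adjusted p = 1.7e-16) in LAMP2A against VT cells, -0.66 (SE 0.032, adjusted p = 6.8e-20) in LAMP2A+DM-αKG against LAMP2A cells and -0.16 (SE 0.032, adjusted p = 5.2e-05) in LAMP2A+DM-αKG against VT cells.

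Igf2bp2, the family member that also stays on in adult tissues, followed the order of Lin28a. It had 58.4, 56.9 and 56.3 CPM in LAMP2A+DM-αKG libraries, 119, 115 and 114 CPM in LAMP2A libraries, and 84.7, 81.1 and 84.4 CPM in VT libraries. All 3 groups were separate, with LAMP2A+DM-αKG lowest. The log2 fold change was 0.48 (SE 0.034, adjusted p = 3.2e-15) in LAMP2A against VT cells, -1.02 (SE 0.035, adjusted p = 3.0e-24) in LAMP2A+DM-αKG against LAMP2A cells and -0.54 (SE 0.037, adjusted p = 8.1e-15) in LAMP2A+DM-αKG against VT cells.

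In LAMP2A+DM-αKG cells, Igf2bp3 also had a level close to that of VT cells. It had 179.5, 179.1 and 179 CPM in LAMP2A+DM-αKG libraries, 260.2, 260.3 and 261 CPM in LAMP2A libraries, and 168, 167 and 177 CPM in VT libraries. The groups were separate, but LAMP2A+DM-αKG and VT libraries lay near each other. The log2 fold change was 0.61 (SE 0.029, adjusted p = 7.2e-20) in LAMP2A against VT cells and -0.54 (SE 0.029, adjusted p = 2.7e-18) in LAMP2A+DM-αKG against LAMP2A cells. Against VT cells it was 0.07 (SE 0.030, adjusted p = 0.0453) in LAMP2A+DM-αKG cells, a call that was lost under 10 of 13 alternative analyses, among them leaving out any LAMP2A+DM-αKG library, VT replicate 1 or VT replicate 2. Its adjusted p then ranged from 0.00463 to 0.0991 over all 13. Malsu1 overlaps Igf2bp3 on the other strand and shared 34.5% of the 50-base stretches of its transcript; Malsu1 had 26.1 ± 0.509 CPM in LAMP2A+DM-αKG cells, 20.1 ± 0.230 CPM in LAMP2A cells and 20.6 ± 1.78 CPM in VT cells (SD, n = 3 each). The library kit keeps the strand, but the strand setting of the counting is not given in the sources used here.

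Hmga2 had the widest range of the 8 genes. It had 15.5, 16.3 and 16.4 CPM in LAMP2A+DM-αKG libraries, 432, 418 and 417 CPM in LAMP2A libraries, and 24.1, 25.5 and 24.2 CPM in VT libraries. All 3 groups were separate. In LAMP2A against VT cells it was 17.2-fold higher (log2 fold change 4.10, SE 0.037, adjusted p = 1.5e-41) and ranked 571 of 14513 genes. It was 26.2-fold lower in LAMP2A+DM-αKG against LAMP2A cells (log2 fold change -4.71, SE 0.039, adjusted p = 1.5e-42). In LAMP2A+DM-αKG cells it also stood 1.53-fold below VT cells (log2 fold change -0.61, SE 0.052, adjusted p = 2.7e-12).

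Hmga1, its paralog, had few counts and was not called. It had 49, 44 and 71 counts in LAMP2A+DM-αKG libraries, 65, 74 and 49 counts in LAMP2A libraries, and 61, 56 and 36 counts in VT libraries. These came to 2.04 ± 0.334 CPM in LAMP2A+DM-αKG cells, 2.03 ± 0.240 CPM in LAMP2A cells and 1.97 ± 0.591 CPM in VT cells (SD, n = 3 each), and all groups overlapped. The 95% interval of the log2 fold change was -0.30 to 0.43 in LAMP2A against VT cells, -0.35 to 0.36 in LAMP2A+DM-αKG against LAMP2A cells and -0.30 to 0.44 in LAMP2A+DM-αKG against VT cells, with adjusted p = 0.741, 0.977 and 0.766 in that order. Of the 50-base stretches of the Hmga1 transcript, 86.0% also occur in transcripts of other genes, on either strand. How reads that fit more than 1 place were treated is not given in the sources used here. The level of Hmga1 is therefore uncertain.

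**Figure D4:**
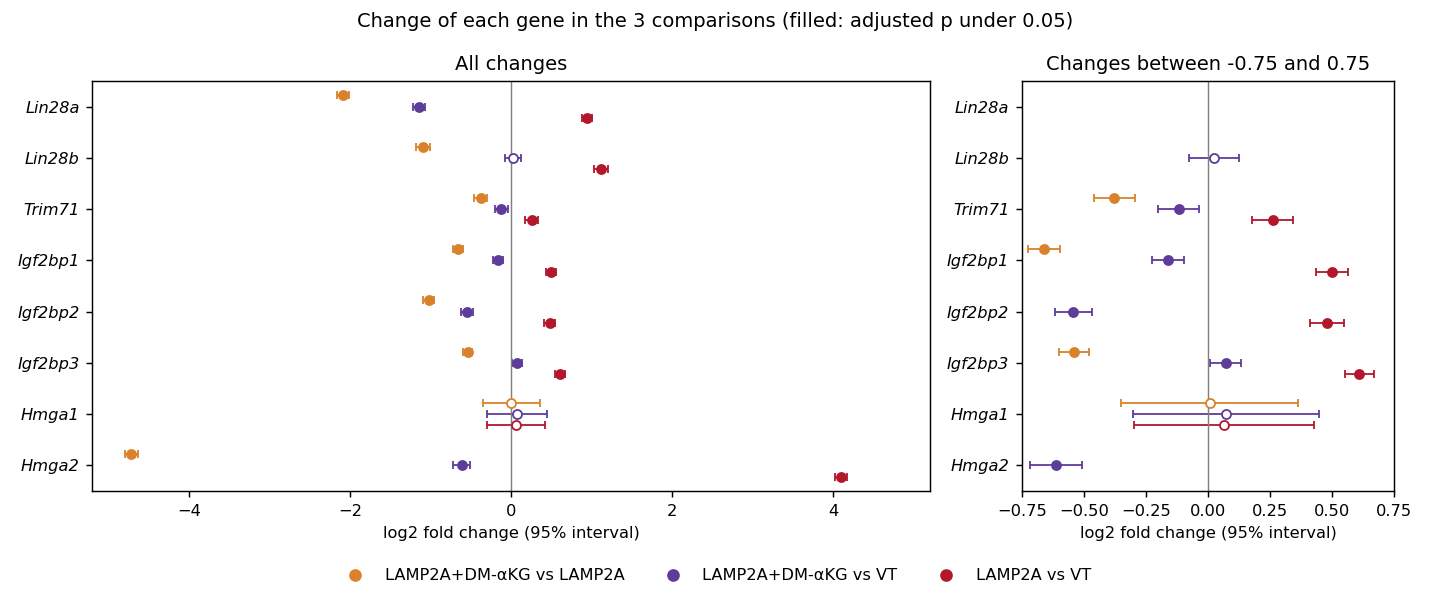
Log2 fold change of each gene with its 95% interval in the 3 comparisons, over the full range (left) and near 0 (right); filled points passed an adjusted p under 0.05. Hmga2 lies at 4.10 and -4.71 in the comparisons with LAMP2A, Lin28a lies at -1.14 in LAMP2A+DM-αKG against VT, and the open points are Hmga1 in every comparison and Lin28b in LAMP2A+DM-αKG against VT.

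Corrected for transcript length, the order of the 8 genes changed with the group. In LAMP2A+DM-αKG cells the order was Igf2bp1 (53.8 CPM per kb), Igf2bp3 (41.2), Trim71 (18.4), Lin28a (15.2), Igf2bp2 (14.7), Lin28b (5.64), Hmga2 (4.22) and Hmga1 (1.21). The ranges of Lin28a and Igf2bp2 overlapped, at 14.9 to 15.6 and 14.4 to 15.0 CPM per kb. In LAMP2A cells Hmga2 led with 110.8 CPM per kb, before Igf2bp1 (85.0), Lin28a (64.4), Igf2bp3 (59.96), Igf2bp2 (29.8), Trim71 (23.9), Lin28b (12.0) and Hmga1 (1.21), with no overlap between neighbours. In VT cells Igf2bp1 led with 60.1 CPM per kb, before Igf2bp3 (39.3), Lin28a (33.5), Igf2bp2 (21.4), Trim71 (19.98), Hmga2 (6.45), Lin28b (5.55) and Hmga1 (1.17). Of these, Igf2bp2 and Trim71 overlapped, at 20.8 to 21.7 and 18.5 to 21.2 CPM per kb. The last place of Hmga1 in each group is uncertain, because most of its transcript sequence is shared with other genes.

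Markers of other cell types did not all move alike. In LAMP2A against VT cells, 8 of 9 tested fibroblast and feeder markers rose and 1, Thy1, fell. Of 11 tested endoderm markers, 10 rose and 1, Sox7, fell, and of 4 tested haematopoietic markers 1 rose and 3 fell. Among all tested genes 43% rose and 42.1% fell. The 12 fibroblast and feeder markers summed to 457 to 467 CPM in LAMP2A+DM-αKG cells, 1204 to 1211 CPM in LAMP2A cells and 381 to 399 CPM in VT cells. Of these, 2 reached 5 CPM in LAMP2A+DM-αKG cells, 7 in LAMP2A cells and 2 in VT cells, and Vim, which ES cells also express, gave most of the sum. Fap had no count in LAMP2A cells, and Fap and Lum had none in VT cells. The 12 primitive and visceral endoderm markers summed to 60.8 to 63.7 CPM in LAMP2A+DM-αKG cells, 479 to 484 CPM in LAMP2A cells and 41.1 to 42.7 CPM in VT cells. In that list 5 reached 5 CPM in LAMP2A+DM-αKG cells, 8 in LAMP2A cells and 4 in VT cells, and Afp had no count in VT cells. The 7 haematopoietic markers summed to 16.3 to 16.9 CPM in LAMP2A+DM-αKG cells, 11.9 to 12.9 CPM in LAMP2A cells and 28.9 to 32.2 CPM in VT cells. The part of other cell types in the levels of Hmga2, Lin28a and the other genes was not tested, and in bulk RNA a change in the number of cells of a type cannot be told apart from a change in RNA per cell.

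Of 25 tested genes that make, silence with or degrade let-7, 12 rose, 9 fell and 4 were not called in LAMP2A against VT cells, with a median log2 fold change of 0.06. These counts lie near the shares of all tested genes, 43% higher and 42.1% lower. In LAMP2A+DM-αKG against LAMP2A cells 10 rose, 9 fell and 6 were not called (median 0.04), and against VT cells 11 rose, 7 fell and 7 were not called (median 0.07). The shares of all tested genes were 41.1% higher and 42.1% lower against LAMP2A cells, and 29.3% higher and 29.4% lower against VT cells. Tut4, the terminal uridylyltransferase that LIN28A recruits to let-7 precursors, had 95.9 ± 1.90 CPM in LAMP2A+DM-αKG cells, 172 ± 2.83 CPM in LAMP2A cells and 90.2 ± 5.50 CPM in VT cells (SD, n = 3 each). Tut4 rose in LAMP2A against VT cells (log2 fold change 0.93) and fell in LAMP2A+DM-αKG against LAMP2A cells (-0.85). Dicer1, which cuts precursors to mature microRNAs and is itself a let-7 target, had 136 ± 0.570 CPM in LAMP2A+DM-αKG cells, 185 ± 2.47 CPM in LAMP2A cells and 116 ± 5.00 CPM in VT cells (SD, n = 3 each). Its log2 fold change was 0.67 in LAMP2A against VT cells and -0.44 in LAMP2A+DM-αKG against LAMP2A cells. Prkra, a partner of Dicer1, and Tnrc6a, a protein of the silencing complex, also rose in LAMP2A against VT cells (log2 fold changes 0.85 and 0.48). Khsrp, a binder of the let-7 loop that promotes maturation, rose in LAMP2A+DM-αKG against LAMP2A cells (log2 fold change 0.43), and Msi2, an RNA-binding protein, fell (-0.50). Against VT cells, Msi1 (log2 fold change 0.52), Tent2 (log2 fold change 0.35) and Ago1 (log2 fold change 0.33) rose in LAMP2A+DM-αKG cells.

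Mature let-7 was not analysed here, because the libraries were made from mRNA. The count table has 12 let-7 and miR-98 entries, of which 6 had no count, 5 had 1 to 26 counts over all 9 libraries and only Mirlet7d was tested. Mirlet7d had 9, 7 and 12 counts in LAMP2A+DM-αKG libraries, 23, 20 and 14 in LAMP2A libraries, and 7, 10 and 8 in VT libraries. Its log2 fold change was 0.95 (adjusted p = 0.00658) in LAMP2A against VT cells and -0.81 (adjusted p = 0.0156) in LAMP2A+DM-αKG against LAMP2A cells, on very few reads that may come from longer transcripts. Wdr82, which overlaps the let-7g gene, fell in LAMP2A against VT cells (log2 fold change -0.80) and rose in LAMP2A+DM-αKG against LAMP2A cells (0.65).

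Other textbook let-7 targets were more often higher than lower in LAMP2A against VT cells and more often lower than higher in LAMP2A+DM-αKG against LAMP2A cells. Of 37 tested, 25 rose, 7 fell and 5 were not called in LAMP2A against VT cells (median log2 fold change 0.63), where 43% of all tested genes rose. With DM-αKG, 8 rose, 23 fell and 6 were not called against LAMP2A cells (median -0.55), where 42.1% of all tested genes fell. Against VT cells, where more of the 8 genes fell than rose, 16 of these targets rose, 10 fell and 11 were not called (median 0.07), beside 29.3% of all tested genes that rose and 29.4% that fell. A seed match was found in 28 of these 37 genes (75.7%), beside 10.7% of tested genes with an annotated 3′ UTR. The list was made of known let-7 targets, a choice that itself favours genes with matches.

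Irs2, an adaptor of insulin signalling, had 13.4 ± 0.386 CPM in LAMP2A+DM-αKG cells, 103 ± 1.71 CPM in LAMP2A cells and 13.8 ± 0.977 CPM in VT cells (SD, n = 3 each). Its log2 fold change was 2.90 in LAMP2A against VT cells and -2.94 in LAMP2A+DM-αKG against LAMP2A cells. Arid3b, a DNA-binding protein, had 101 ± 2.61 CPM in LAMP2A+DM-αKG cells, 334 ± 5.12 CPM in LAMP2A cells and 95.4 ± 2.40 CPM in VT cells (SD, n = 3 each). Irs2 and Arid3b were thus highest in LAMP2A cells and stood near the VT level in LAMP2A+DM-αKG cells. Ccnd2, a G1 cyclin, had 1.13 ± 0.360 CPM in LAMP2A+DM-αKG cells, 57.2 ± 0.656 CPM in LAMP2A cells and 2.31 ± 0.502 CPM in VT cells (SD, n = 3 each). Igf1r, the IGF1 receptor, had 56.2 ± 2.95 CPM in LAMP2A+DM-αKG cells, 186 ± 3.04 CPM in LAMP2A cells and 45.1 ± 2.20 CPM in VT cells (SD, n = 3 each). Against VT cells, the targets with the smallest p-values in LAMP2A+DM-αKG cells had log2 fold changes of -1.11 (Myc), -0.74 (Ccnd1), -0.37 (Nr6a1) and 0.43 (Bach1). Nr6a1, with 8 seed matches, had 51.4 ± 1.72 CPM in LAMP2A+DM-αKG cells, 111 ± 3.07 CPM in LAMP2A cells and 66.4 ± 1.79 CPM in VT cells (SD, n = 3 each). Of the other targets named, Igf1r and Bach1 had 2 seed matches each in the annotated 3′ UTR, and Irs2 and Arid3b had 1 each. Ccnd2, Myc, Ccnd1 and Dicer1 had 0.

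Over all genes, the median change differed little between classes with 0, 1 and 2 seed matches, and more in the small class with 3 or more. Tested genes other than the 8 with no match (n = 11948) had a median log2 fold change of 0.01 in LAMP2A against VT cells, those with 1 match (n = 1253) had 0.06, those with 2 (n = 150) had 0.09 and those with 3 or more (n = 21) had 0.30. The medians in LAMP2A+DM-αKG against LAMP2A cells were -0.00 with no match, -0.07 with 1 match, -0.01 with 2 and -0.43 with 3 or more, so they did not follow the number of matches step by step. Against VT cells they were 0.00, 0.01, 0.02 and 0.11 in that order. The shares of genes that rose in LAMP2A against VT cells were 43.5%, 46.4%, 46% and 57.1%. The median UTR length also rose over these classes, from 1046 bases with no match to 4453 bases with 3 or more, and its part in the medians was not tested.

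Of 6 tested genes whose mRNAs TRIM71 is known to repress, 3 rose and 3 fell in LAMP2A against VT cells, 2 rose and 4 fell in LAMP2A+DM-αKG against LAMP2A cells, and 2 rose, 3 fell and 1 was not called against VT cells. Of all tested genes, 43% rose and 42.1% fell in LAMP2A against VT cells. In LAMP2A+DM-αKG cells, 41.1% rose and 42.1% fell against LAMP2A cells, and 29.3% rose and 29.4% fell against VT cells. Counts this small thus say nothing particular to the list. Cdkn1a, the cell cycle inhibitor p21, had 47.0 ± 1.01 CPM in LAMP2A+DM-αKG cells, 115 ± 2.78 CPM in LAMP2A cells and 36.1 ± 3.55 CPM in VT cells (SD, n = 3 each). Rbl2, a relative of the retinoblastoma protein, had 13.1 ± 0.422 CPM in LAMP2A+DM-αKG cells, 7.60 ± 0.668 CPM in LAMP2A cells and 15.1 ± 0.859 CPM in VT cells (SD, n = 3 each). Egr1, an immediate early transcription factor, had 4.21 ± 0.627 CPM in LAMP2A+DM-αKG cells, 11.7 ± 0.0293 CPM in LAMP2A cells and 17.3 ± 0.260 CPM in VT cells (SD, n = 3 each). E2f7, a repressor of the E2F family, had log2 fold changes of 0.75 in LAMP2A against VT cells and -0.86 in LAMP2A+DM-αKG against LAMP2A cells. Rbl1, another relative of the retinoblastoma protein, rose in LAMP2A+DM-αKG against LAMP2A cells (log2 fold change 0.57). Cdkn1a, E2f7 and Mbnl1 were highest in LAMP2A cells, as was Trim71, while Rbl1 and Rbl2 were lowest there. Egr1 was lowest in LAMP2A+DM-αKG cells, and a link of these genes to Trim71 was not tested.

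Of 15 targets and partners of the IGF2BP proteins, 6 were higher, 7 lower and 2 not called in LAMP2A against VT cells (median log2 fold change -0.06), near the 43% higher and 42.1% lower of all tested genes. With DM-αKG, 8 rose, 6 fell and 1 was not called against LAMP2A cells (median 0.13), where 41.1% of all tested genes rose and 42.1% fell. Against VT cells 4 rose, 7 fell and 4 were not called, where 29.3% of all tested genes rose and 29.4% fell. Igf2, the growth factor whose mRNA named the family, had 2.44 ± 0.182 CPM in LAMP2A+DM-αKG cells, 1762 ± 15.7 CPM in LAMP2A cells and 0.710 ± 0.256 CPM in VT cells (SD, n = 3 each). H19, the noncoding RNA that neighbours Igf2 and binds IGF2BP1, had 0.170 ± 0.0949 CPM in LAMP2A+DM-αKG cells, 109.8 ± 1.19 CPM in LAMP2A cells and 0.102 ± 0.0167 CPM in VT cells (SD, n = 3 each). Both were among the genes with the largest changes in the list. Actb, whose mRNA IGF2BP1 carries and which is often used as a constant gene, had 1533 ± 11.6 CPM in LAMP2A+DM-αKG cells, 3265 ± 32.7 CPM in LAMP2A cells and 2326 ± 57.4 CPM in VT cells (SD, n = 3 each). Myc fell in LAMP2A+DM-αKG against LAMP2A cells (log2 fold change -1.87). Ybx1, an RNA-binding partner, fell in LAMP2A against VT cells (log2 fold change -0.57), and Cd44 rose there (5.51).

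Of 13 tested HMG proteins and HMGA-linked genes, 8 rose, 4 fell and 1 was not called in LAMP2A against VT cells (median log2 fold change 0.31), where 43% of all tested genes rose and 42.1% fell. Against LAMP2A cells, 4 rose, 7 fell and 2 were not called in LAMP2A+DM-αKG cells (median -0.38), and against VT cells 7 rose, 2 fell and 4 were not called (median 0.12). The shares over all tested genes were 41.1% higher and 42.1% lower against LAMP2A cells, and 29.3% higher and 29.4% lower against VT cells. Twist1 and Snai1, transcription factors of epithelial-mesenchymal transition that HMGA2 activates in other cells, rose in LAMP2A against VT cells (log2 fold changes 3.71 and 3.48) and fell in LAMP2A+DM-αKG against LAMP2A cells (-2.68 and -2.77). Cdkn2a, a locus that HMGA2 represses in neural stem cells, had 8.15 ± 0.543 CPM in LAMP2A+DM-αKG cells, 31.6 ± 1.00 CPM in LAMP2A cells and 3.18 ± 0.391 CPM in VT cells (SD, n = 3 each). Cdkn2a was thus highest in LAMP2A cells, as was Hmga2, and a link between them was not tested. Hmgb3, a chromatin protein of the HMG-box family, had log2 fold changes of 1.67 in LAMP2A against VT cells and -1.35 in LAMP2A+DM-αKG against LAMP2A cells. Hmgn3 and Hmgn5, nucleosome-binding HMG proteins, stood above VT cells in LAMP2A+DM-αKG cells (log2 fold changes 1.13 and 0.46).

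The list used for other oncofetal genes had larger median changes than the 8 genes in both comparisons with LAMP2A cells. It was drawn up loosely and does not keep strictly to the definition at the start: Igf1r, Cdkn1c and Plagl1 are on it, as are imprinted genes. Of 11 tested, 10 rose and 1 fell in LAMP2A against VT cells, all 10 at least 2-fold (median log2 fold change 4.74), where 43% of all tested genes rose and 19.8% rose at least 2-fold. The gene that fell was Sall4, with 265 CPM in VT cells and 189 CPM in LAMP2A cells. In LAMP2A+DM-αKG against LAMP2A cells 10 fell and 1 rose (median -3.41), where 42.1% of all tested genes fell. Against VT cells 6 rose, 2 fell and 3 were not called (median 0.37), where 29.3% of all tested genes rose and 29.4% fell, so that here the list and the 8 genes differed in the sign of the median. Mest, an imprinted gene of the mesoderm and placenta, had 152 ± 2.05 CPM in LAMP2A+DM-αKG cells, 5119 ± 10.9 CPM in LAMP2A cells and 146 ± 1.74 CPM in VT cells (SD, n = 3 each). Gpc3, the cell-surface proteoglycan glypican 3, had 12.3 ± 0.473 CPM in LAMP2A+DM-αKG cells, 403 ± 2.14 CPM in LAMP2A cells and 15.1 ± 1.40 CPM in VT cells (SD, n = 3 each). Peg10, an imprinted gene of retrotransposon origin, had 281 ± 4.17 CPM in LAMP2A+DM-αKG cells, 2995 ± 13.5 CPM in LAMP2A cells and 217 ± 15.7 CPM in VT cells (SD, n = 3 each). Dlk1, an imprinted inhibitor of differentiation, stood above VT cells in LAMP2A+DM-αKG cells (log2 fold change 2.06). The lists are not separate: Igf2 and H19 are also among the IGF2BP targets, Igf1r, Dicer1 and Myc among the let-7 targets, and Afp among the endoderm markers, while the let-7 targets Col1a2 and Col3a1 are fibroblast markers. Endoderm and fibroblast marker sums, given above, were highest in the same LAMP2A libraries.

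**Figure D5:**
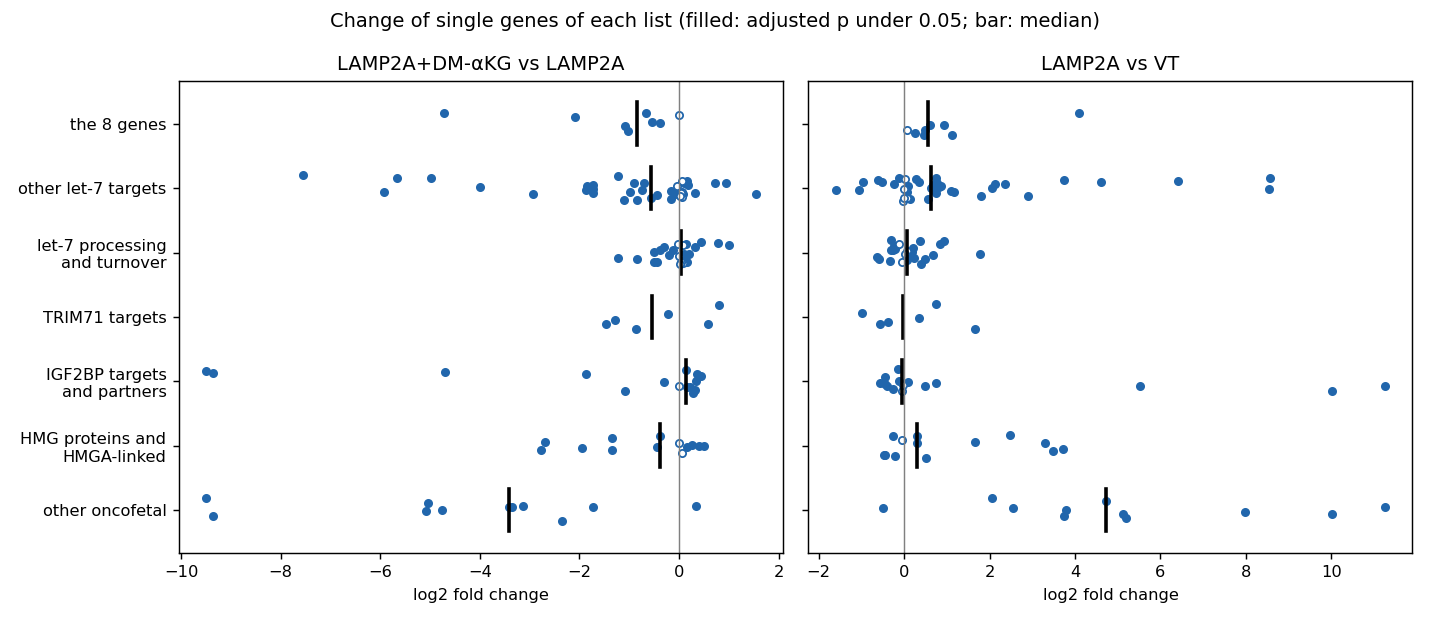
Log2 fold change of every tested gene of each list in LAMP2A+DM-αKG against LAMP2A cells (left) and in LAMP2A against VT cells (right); filled points passed an adjusted p under 0.05, black bars are list medians, and the vertical spread of the points carries no meaning. The median of the other oncofetal genes is -3.41 on the left and 4.74 on the right, and that of let-7 processing genes is 0.04 and 0.06.

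The genes most alike to each of the 8 were taken by the smallest Euclidean distance between centred log2 CPM over the 9 libraries, among 10361 genes that averaged 5 CPM or more. Lin28a was nearest to Bst2 (distance 0.235), Dnmt3a (0.318) and Myc (0.326), where the median gene lay at 2.701. Dnmt3a, a DNA methyltransferase, had 30.9 CPM in LAMP2A+DM-αKG cells, 113 CPM in LAMP2A cells and 59.7 CPM in VT cells on average. Lin28b was nearest to Lifr (0.127), Dpysl3 (0.143) and Large (0.144). Lifr, the receptor of leukemia inhibitory factor, averaged 135 CPM in LAMP2A+DM-αKG cells, 289 CPM in LAMP2A cells and 138 CPM in VT cells. Hmga2 was nearest to Aff3 (0.339), Ctnnd2 (0.378) and Msrb3 (0.424), where the median gene lay at 6.36. Aff3, Ctnnd2 and Msrb3 averaged 42.9 to 45.4 CPM in LAMP2A cells and less than 5 CPM in both other groups. They thus passed the limit on the mean only through LAMP2A cells, and their likeness to Hmga2 rests mainly on that group. Msrb3, a gene next to Hmga2 in many mammals, averaged 1.99 CPM in LAMP2A+DM-αKG cells, 45.4 CPM in LAMP2A cells and 2.65 CPM in VT cells. Trim71 was nearest to Tanc1 (0.101), Igf2bp1 to Pik3cb (0.0791), Igf2bp2 to Actb (0.148) and Igf2bp3 to Sh3bgrl2 (0.0491). For Hmga1 the nearest gene, Adck5, lay at 0.553, where the median gene lay at 1.05. Hmga1 had few counts, and the part of counting noise in its distances was not tested.

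In the authors' deposited tables, all 8 genes were listed in LAMP2A against VT and in LAMP2A+DM-αKG against LAMP2A, and 7 had an adjusted p under 0.05 in each. The sign of the log2 fold change in the authors' deposited table was that of the fit made here for all 8 genes in both comparisons. The largest difference in log2 fold change from the authors' deposited table was 0.00587 in LAMP2A against VT cells.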

How the data were processed

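The authors deposited raw counts per gene symbol for 9 libraries, made with STAR 2.7.1, HTSeq 0.11.2 and mm10, per the submitters' processing notes. Neither the strand setting nor the treatment of multiply mapped reads is stated. Libraries came from a stranded mRNA kit, per the labels' protocols. The authors also deposited DESeq2 tables with, per the file headers, a mean signal, log2 fold changes, a test score, a p-value and an adjusted p-value; log2 fold changes and adjusted p-values were read for comparison.

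The analysis used R 4.3.3 and edgeR 4.0.16 (filterByExpr, TMM, estimateDisp, glmQLFit with robust estimation, glmQLFTest) on all 9 libraries, with group means, 6 residual degrees of freedom and Benjamini-Hochberg adjustment over 14513 genes. The common biological coefficient of variation was 2.74%. SE was taken as |log2 fold change| divided by the root of F. Log2 CPM used a prior count of 1. Within groups, libraries correlated at 0.994 to 0.997, and their counts differed by more than sampling noise (chi-square over its degrees of freedom 1.19 to 5.93). The fit was tested on simulated data. UTRs and lengths came from the GENCODE vM21 protein-coding transcript with the longest 3′ UTR.

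The 8 genes, the gene lists and the tests were chosen with earlier results of these data known. Named were the 8 genes, up to 4 genes per list and comparison with the smallest p, and the genes most alike to each of the 8. Listed symbols left unmatched included Mirlet7bhg, Mir100hg and Mirlet7dhg. Alternatives were other scaling factors, other filters, DESeq2 1.42.0, only the compared libraries, a replicate block and leaving out each library.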

Additional observations from a re-analysis of the deposited data

How the results depend on the processing

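Each comparison was repeated under 13 alternatives. In LAMP2A against VT cells 7 of the 8 genes rose, and in LAMP2A+DM-αKG against LAMP2A cells 7 fell, under every one of them; Hmga1 was not called in any, and had 12 alternatives because a mean of at least 5 CPM removed it. Counts of all genes stayed within 1.5 times under these alternatives, from 4693 to 6842 higher in LAMP2A against VT cells and from 4620 to 6634 lower in LAMP2A+DM-αKG against LAMP2A cells. In LAMP2A+DM-αKG against VT cells the count of higher genes among the 8 was 1 (Igf2bp3), but 0 with upper-quartile factors, 0 with no filter on low counts, 0 with DESeq2, 0 with only the 6 libraries compared, and 0 to 1 when 1 library was left out; the cause was not tested. The count of lower genes among the 8 there was 4 to 5 under all alternatives. With the replicate number as a block the count of higher genes was also 0 (Igf2bp3, adjusted p = 0.0583), and no other call among the 8 genes changed. No pairing of libraries by number was seen: over 9 pairs with the same number the correlation of deviations ran from -0.0266 to 0.0117, and 1 of 9 libraries correlated best with its own number. Such a check cannot exclude that libraries of the same number were handled together. Scaling moved the median of all genes by less than 0.1 on the log2 scale. Hmga1 had 36 to 74 counts per library, which limits its precision; the part of reads that fit several places in these low counts was not tested.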
